A study of Mus musculus with 24 samples.

Results

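The epithelium of the Müllerian duct was compared between Wnt7a-null and wild-type mouse embryos at E14.5 (E, embryonic day), using the 6 libraries of that region and stage out of 24 in the series, 3 for each genotype. The libraries were chosen by the genotype, stage and region that their titles give. The question was which probes of the panel differed between the genotypes beyond the loss of contrast between bright and dim probes that all null libraries of this stage shared.

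The study profiled the ducts where they meet at the midline of the body, before fusion (E13.5) and when the ducts lie against each other (E14.5). All embryos were female, and each of the 12 gave a library of duct epithelium (MDE) and a library of the mesenchyme beside it (MDM). The regions were picked on sections stained for laminin, a basement membrane protein, and read on the GeoMx platform, in which light frees barcodes from hybridised probes and the barcodes are sequenced. Every library held counts for the same 20175 probes. The null embryos are labelled Wnt7a null, with no allele, strain or litter given, and the wild-type embryos carry no further label. One section per embryo was used and all sections lay on a single slide, so each group of 3 libraries stands for 3 embryos. The probe identifiers were not paired with gene names here. Neither the level of Wnt7a, which would check the genotype labels, nor epithelial and mesenchymal marker genes, which would check the regions, could be read.

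Wnt7a is a secreted Wnt ligand made by the epithelium of the Müllerian ducts, the embryonic tubes that become the oviducts, uterus and upper vagina. Wnt ligands bind Frizzled receptors on nearby cells, and the signal is passed on through beta-catenin or through other branches of the pathway. Mice without Wnt7a are known to form abnormal female reproductive tracts, with changes in patterning and smooth muscle. Which of the probes below belong to this pathway is not known here.

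Null replicate 2 stood apart in depth before any comparison was made. It held 2618342 counts with 24.1 aligned reads per count, whereas null replicates 1 and 3 held 305606 and 619233 counts and the wild-type libraries 175461, 298133 and 243190. The lowest ratio of aligned reads to counts among the null libraries was 2.07, and the wild-type libraries had 2.07 to 2.21. Every null library was therefore deeper than every wild-type library. The ratio of null replicate 2 lay in the range of the mesenchymal libraries of the series (21.1 to 26.8). The E13.5 epithelial libraries had 2.08 to 2.38. Its total also lay in the mesenchymal range, 1039606 to 12379529 counts. Why null replicate 2 differed was not tested. The median probe had 12 to 112 counts in a null library and 6 to 11 in a wild-type library, so counting error was larger in the wild-type libraries. Results without null replicate 2 are given below for counts of calls. For single probes they are given where its absence changed a call in the comparison that named the probe.

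The null epithelium carried much less of its signal on bright probes. This share was measured in the E14.5 epithelium only, so it is not shown to be particular to that region. The 1009 brightest probes, 5% of the panel by mean CPM (counts scaled to the library total) over all 24 libraries, took 19.5%, 16.0% and 17.1% of the counts of null replicates 1, 2 and 3. In wild-type replicates 1, 2 and 3 they took 28.9%, 26.5% and 27.6%. The genotypes did not overlap, and the means were 17.5% ± 1.78 and 27.6% ± 1.198 (SD, n = 3 each). With all 6 libraries thinned to the lowest total, the null minus wild-type difference was −10.2 percentage points, against −10.1 unthinned. In bulk regions such as these, fewer cells of a type and less RNA per cell cannot be told apart.

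The dim end moved the other way. The 5044 dimmest probes (25% of the panel), taken here as the background level, averaged 30.0, 32.4 and 31.7 CPM in the null libraries and 22.7, 24.96 and 23.6 CPM in the wild-type libraries. The brightest 5% stood 6.44, 4.89 and 5.36 times above this level in null and 12.6, 10.5 and 11.6 times in wild-type. The number of probes over 2 times the background was 3355, 2105 and 2414 in null libraries and 7071, 5494 and 5749 in wild-type libraries. In each of these measures every null library lay on the same side of every wild-type library. By a two-sided exact permutation test p was 0.1 for each, which is the lowest value 3 against 3 can reach, and 0.1 after adjustment over 5 measures that included the total counts.

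The same loss could be followed probe by probe on the signal above background. To choose probes without the libraries compared, 1816 probes were taken that averaged over 3 times background in wild-type epithelium at E13.5. For each, the mean level above background in null at E14.5 was expressed as a percentage of that in wild-type at E14.5, both in CPM scaled with TMM (trimmed mean of M values, which sets the bulk of the probes equal between libraries). From here on, levels are TMM-scaled CPM, and background is the mean of the dimmest 25% of probes on that scale, with means of 29.2 ± 0.440 for the null and 25.4 ± 0.817 CPM for the wild-type E14.5 libraries (SD, n = 3 each). The median probe kept 47.0% of its wild-type signal. The middle of the distribution ran from 36.6% (the 25th percentile) to 63.8% (the 75th), and the ends from 25.2% (the 5th) to 100.5% (the 95th).

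The 3 null libraries gave similar medians, 50.9%, 45.7% and 43.6% of the wild-type mean. The single wild-type libraries gave 106%, 91.5% and 100.8% of the mean they are part of. Of the 1816 probes, 36 kept under 20% of the signal and 94 kept more than 100%.

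**Figure D1:**
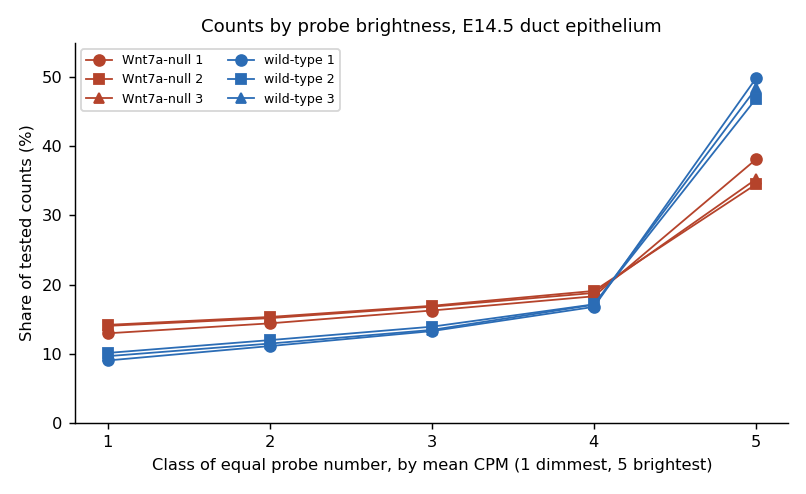
Share of the tested counts (%, vertical axis) that fell in each of 5 classes of equal probe number, ordered by mean CPM from dimmest (1) to brightest (5), with a line per library. The 3 null libraries (red) put 34.5% to 38.1% of counts in the brightest class, all below the 46.9% to 49.8% of the 3 wild-type libraries (blue), and the order is turned in the dimmest class.

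Tested with TMM scaling alone, the genotype difference followed brightness. Of 14758 probes tested by edgeR's quasi-likelihood test, 797 passed at an adjusted p under 0.05 (5.4% of those tested), 681 lower in null (4.61%) and 116 higher (0.786%). The tested probes were then split into 5 classes of equal number by mean CPM over the 12 epithelial libraries. From the dimmest to the brightest class the median log2 fold change was 0.34, 0.18, 0.10, −0.07 and −0.47. The brightest class, which begins at 59.8 CPM or 2.26 times background, held 629 of the 681 lower calls and 3 of the 116 higher calls. The dimmest held 0 lower and 40 higher calls. The split depends on the scaling, since upper-quartile scaling gave 269 higher and 483 lower calls and moved the median of all probes from 0.04 to 0.18. DESeq2 gave 1 higher and 726 lower.

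Higher calls on this scale mostly came from probes at or near background in wild-type. Of the 116, 78 lay below background in wild-type and 111 below 1.5 times background. Lower calls came from well-measured probes, since 650 of the 681 stood over 3 times background in wild-type, and 260 still did so in null. Null levels of 89 of them had come down to under 1.5 times background. The median over the 681 lower calls was 32.2% of the wild-type signal above background.

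To separate single probes from the shared shift, each was set against probes of equal brightness. In this fit the size of a library was taken, for each probe, from its total over probes of equal mean CPM (100 classes of equal number), and the same edgeR test was run on the counts. A log2 fold change then says how far a probe moved relative to its equals. The medians of the 5 classes became 0.03, 0.00, −0.00, −0.01 and −0.04. Of 14758 probes 49 passed (0.332%), 19 lower in null (0.129%) and 30 higher (0.203%), and 1512 had an unadjusted p under 0.05. The split also depends on how equals are found: loess gave 68 higher and 27 lower calls, class medians 61 and 17, and classes set in the mesenchyme 92 and 129. Limma on background-subtracted signal turned the balance, with 33 higher and 264 lower of 9010 probes tested.

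**Figure D2:**
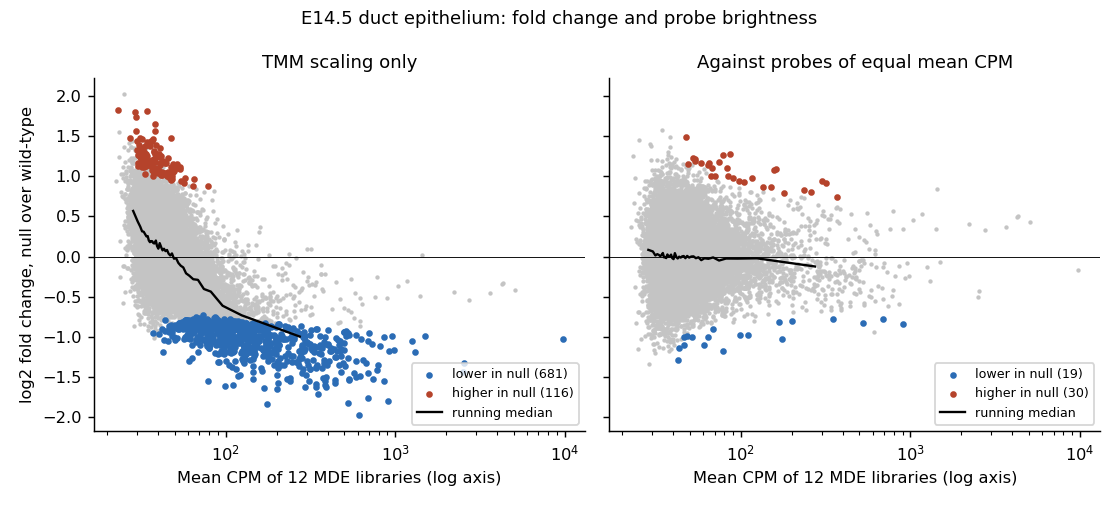
Log2 fold change of null over wild-type epithelium at E14.5 (vertical axis) against the mean CPM of the 12 epithelial libraries (horizontal, log axis), for each of 14758 probes, with TMM scaling alone (left) and against probes of equal mean CPM (right). Coloured points passed at an adjusted p under 0.05, 681 lower and 116 higher on the left and 19 lower and 30 higher on the right; the black running median slopes down on the left and stays near 0 on the right.

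All 19 probes that fell relative to their equals were also among the 681 lower calls of the first fit. They had a median log2 fold change of −0.99 relative to their equals (−1.30 to −0.78) and −1.56 before matching. In CPM, the 3 null libraries lay below the 3 wild-type libraries for 19 of 19, against 15.4% of all probes tested, and relative to their equals for 18, against 10.2%. The measurements chose these probes, so these counts are a description. Wild-type levels ranged from 2.46 to 42.5 times background with a median of 4.92, and null levels from 0.876 to 9.92 times with a median of 1.36. The median member kept 15.5% of its wild-type signal above background and the highest 25.3%. At 10 of the 19 the null level was under 1.5 times background, and at 5 it was over 3 times.

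The 30 probes that rose relative to their equals were of another kind. Only 9 of them had passed before matching, and their median log2 fold change was 1.04 relative to their equals (0.74 to 1.49) but 0.64 before matching (−0.10 to 1.48). The mean CPM of null exceeded that of wild-type at 28 of 30. In CPM the libraries of the genotypes did not overlap at 14 of 30, against 9.09% of all probes tested in this direction, and relative to their equals they did not overlap at 27, against 6.42%. At 25 of the 30 the null mean was under 2 times the wild-type mean. The 25 members with a wild-type level over 1.5 times background stood at 89.0% to 315% of their wild-type signal above background, with a median of 133%.

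RTS0073440 had the lowest p among the probes that fell before matching, and it was called after matching too. In null replicates 1, 2 and 3 it measured 84.7, 74.96 and 80.9 CPM, and in wild-type replicates 1, 2 and 3 it measured 297, 275 and 318 CPM. The highest null library lay far below the lowest wild-type library, and replicates differed little within each genotype. The means of 80.2 ± 4.90 and 297 ± 21.3 CPM (SD, n = 3 each) were 2.74 and 11.7 times background, so the probe was well measured in wild-type and still above background in null. Its log2 fold change was −1.83 (SE 0.274, edgeR adjusted p = 3.10e-07) before matching and −1.02 (SE 0.208, adjusted p = 0.00239) relative to its equals. It kept 18.8% of its wild-type signal above background.

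The matched call of RTS0073440 passed in each of the 6 fits that left out 1 library, with adjusted p of 0.00100 to 0.0390. It was the only 1 of the 19 lower calls to do so. It was lost when counts were thinned to the lowest total of the 12 epithelial libraries, at −0.72 (adjusted p = 0.212). It passed in the other 12 of 13 alternatives, which include the fit without matching. The lowest adjusted p, 2.37e-11, came with classes set in the mesenchyme (−1.68), where this probe was dimmer than in the epithelium. Before matching, the call was lost only with signal contrast as a covariate among 8 alternatives other than leaving out a library (−1.96, adjusted p = 0.0681). At E13.5 the null libraries spread over 219.8, 63.2 and 118 CPM and the wild-type libraries read 191, 217 and 169.8 CPM. The genotypes overlapped there, and the matched log2 fold change was −0.59 (SE 0.254), which did not pass.

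RTS0062727 had the lowest p among the probes that fell relative to their equals. It measured 34.5, 41.5 and 43.4 CPM in null replicates 1, 2 and 3 and 105, 138 and 133 CPM in wild-type replicates 1, 2 and 3. All null libraries were below all wild-type libraries, with means of 39.8 ± 4.70 and 125 ± 17.4 CPM (SD, n = 3 each). The null mean was 1.36 times background, near the floor of the measurement, against 4.92 times in wild-type. The log2 fold change was −1.56 before matching and −1.17 relative to its equals (SE 0.229, edgeR adjusted p = 0.00128), and 10.6% of the signal above background was left. The matched call was lost without wild-type replicate 2 (−1.06, adjusted p = 0.107) and after thinning (−1.30, adjusted p = 0.0575). DESeq2 gave the probe no adjusted p after matching and did not call it. It passed in 10 of 12 matched alternatives other than leaving out a library. At E13.5 the probe ran from 38.4 to 178 CPM in null and from 30.2 to 96.0 CPM in wild-type, with the genotypes overlapping.

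RTS0081238 was the other probe with the lowest p among those that fell before matching, but it was not called after matching. Its levels were 122, 284.5 and 103 CPM in null replicates 1, 2 and 3 and 923, 589.5 and 715 CPM in wild-type replicates 1, 2 and 3. The genotypes lay far apart, but null replicate 2 read more than 2 times either of the other null libraries. Before matching it fell by 1.98 on the log2 scale (SE 0.302, edgeR adjusted p = 4.23e-07). Without null replicate 2 that difference was −2.69 (edgeR adjusted p = 2.46e-08), and the matched fit without that library is not given for this probe. Relative to its equals the difference was −0.94 (SE 0.356, adjusted p = 0.370) and did not pass, although only 19.6% of its signal above background was left. That size lay within the range of the 19 lower calls (−1.30 to −0.78). On the matched scale null replicates 1, 2 and 3 read 139, 457 and 141 CPM, and wild-type replicates 641, 458 and 531 CPM. In E14.5 mesenchyme the probe passed relative to its equals (−1.37, SE 0.369, edgeR adjusted p = 0.0356).

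Among the probes that rose relative to their equals, RTS0079118 had the lowest p. It measured 113, 115 and 97.3 CPM in null replicates 1, 2 and 3 and 99.1, 42.4 and 66.2 CPM in wild-type replicates 1, 2 and 3. Wild-type replicate 1 overlapped the null libraries, and the means were 108.5 ± 9.79 and 69.2 ± 28.5 CPM (SD, n = 3 each), or 3.72 and 2.72 times background. Before matching the log2 fold change of 0.81 did not pass (edgeR adjusted p = 0.0652). Relative to its equals it rose by 1.28 (SE 0.2497, adjusted p = 0.00128), and this call was lost without wild-type replicate 2, the lowest library, at 1.08 (adjusted p = 0.112).

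RTS0063359 was next and barely differed in CPM. Its null libraries read 204, 154 and 256 CPM and its wild-type libraries 179.6, 169.4 and 163 CPM. The genotypes overlapped, with means of 205 ± 51.2 and 171 ± 8.18 CPM (SD, n = 3 each) that were 7.00 and 6.72 times background. The log2 fold change before matching was 0.31 (edgeR adjusted p = 0.580), and relative to probes of equal brightness it was 1.08 (SE 0.211, adjusted p = 0.00128). Its level above background was 121% of wild-type. The matched call was lost without null replicate 3, its highest library (0.80, adjusted p = 0.131), after thinning (0.86, adjusted p = 0.0759) and on background-subtracted signal tested with limma (0.79, adjusted p = 0.162).

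The probes with the lowest p among those that rose before matching were at background in wild-type. RTS0065248 read 87.8, 59.97 and 76.4 CPM in null replicates 1, 2 and 3 and 12.4, 31.8 and 26.5 CPM in wild-type replicates 1, 2 and 3, which stand for 2, 9 and 6 counts before scaling. All null libraries were above all wild-type libraries, and the null mean was 2.56 times background. The wild-type mean was 0.927 times background, so no fold change is given for this probe. It passed before matching (edgeR adjusted p = 0.00101) and relative to its equals (adjusted p = 0.00619). The matched call passed in only 1 of 6 fits that left out a library, and in 9 of 12 other matched alternatives. Before matching, the call passed in 6 of 6 such fits. RTS0071341 read 37.6, 55.4 and 64.4 CPM against 24.8, 24.7 and 13.3 CPM, or 1.80 and 0.823 times background on average. It passed before matching (adjusted p = 0.00299) but not relative to its equals (adjusted p = 0.0747), and the first call was lost without wild-type replicate 3 (adjusted p = 0.101) and after thinning (adjusted p = 0.0619). With signal contrast as a covariate, a fit that could not separate contrast from genotype, the calls before matching of RTS0065248, RTS0071341 and RTS0081238 were lost (adjusted p = 0.722, 0.9499 and 0.863).

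**Figure D3:**
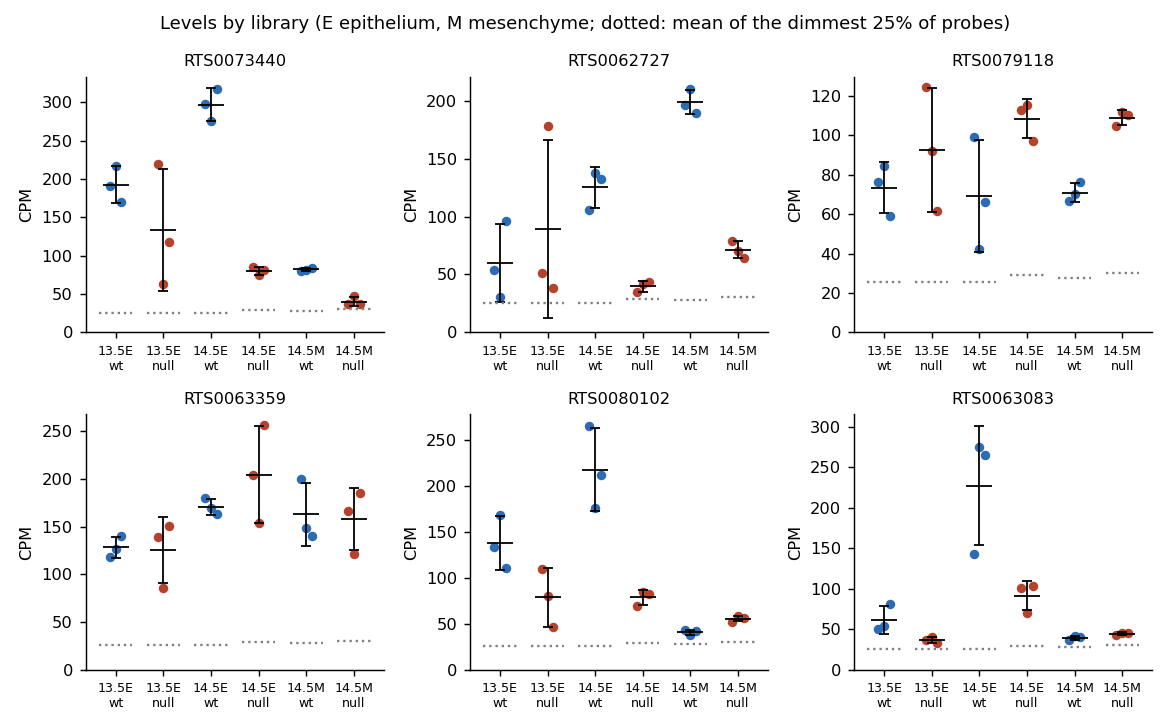
TMM-scaled CPM (vertical axis) of 6 probes in each library of 6 groups: epithelium at E13.5 and E14.5 and mesenchyme at E14.5, wild-type (blue) and Wnt7a-null (red). Points are libraries, bars are mean ± SD (n = 3), and dotted lines mark the mean of the dimmest 25% of probes; RTS0073440, RTS0062727, RTS0080102 and RTS0063083 are lower in all 3 null than in all 3 wild-type E14.5 epithelial libraries, and RTS0063359 overlaps.

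Before fusion no probe passed between the genotypes relative to its equals. In the E13.5 epithelium 0 of 14758 probes passed in edgeR (691 with an unadjusted p under 0.05, lowest adjusted p = 0.464), and leaving out either replicate 1 or replicate 2 of the null E13.5 group gave 1 call each. The median E13.5 log2 fold change was −0.01 over the 19 probes that fell at E14.5 and −0.04 over the 30 that rose, where all tested probes had a median of −0.00. Of the 19, 10 were below 0 at E13.5, and of the 30, 14 were above 0. The change in the genotype difference between the stages was tested directly, and 0 of 14758 probes passed (1128 unadjusted, lowest adjusted p = 0.101). Passing at E14.5 and not at E13.5 is therefore not shown to be a difference between the stages in this fit. Without null E14.5 replicate 2 that test called 67 of 16067 probes (0.417%), 28 higher and 39 lower.

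The lowest p in the stage test belonged to RTS0071705, which was lower in null at E14.5. There it read 132, 157 and 102 CPM in null replicates 1, 2 and 3 and 415, 455 and 490.2 CPM in wild-type replicates 1, 2 and 3, with no overlap. At E13.5 it read 469, 620.1 and 320.2 CPM in null and 279, 259 and 487 CPM in wild-type, with the genotypes overlapping. The difference between the stages was −1.26 on the log2 scale relative to its equals (SE 0.280, edgeR adjusted p = 0.101). It passed with loess in place of the classes (adjusted p = 0.0462) and without null E14.5 replicate 2 (adjusted p = 8.18e-08). It also passed without matching (adjusted p = 0.00243). RTS0062727 followed among lower probes with −1.62 (SE 0.403, adjusted p = 0.190). It passed with loess (adjusted p = 0.0462), without matching (adjusted p = 0.0108), without null E14.5 replicate 2 (adjusted p = 0.0413) and without null E13.5 replicate 3 (adjusted p = 0.0210). The lowest p among higher probes belonged to RTS0080595 (1.95, adjusted p = 0.169) and RTS0067784 (1.44, adjusted p = 0.169). Part of each difference came from E13.5, where null was lower. For RTS0080595 the matched differences were −1.29 at E13.5 and 0.66 at E14.5, and neither passed (edgeR adjusted p = 0.642 and 0.318). Its E13.5 null libraries held only 5, 6 and 10 counts. For RTS0067784 they were −0.56 at E13.5, which did not pass, and 0.87 at E14.5, which did (edgeR adjusted p = 0.025). Without null E14.5 replicate 2 the stage difference of both probes passed (adjusted p = 0.0498 and 0.000330). That of RTS0067784 also passed with loess (adjusted p = 0.0462) and after thinning (adjusted p = 0.0240).

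The mesenchyme of the same embryos moved with the epithelium at these probes. Its libraries were deeper, and 3588 of 20175 probes passed relative to their equals (17.8%), 1921 lower (9.52%) and 1667 higher (8.26%). Of the 19 epithelial lower calls, 13 were lower calls in mesenchyme (68.4% of the 19 and 0.793% of 1640), where 11.1% of the probes tested in both were called lower. All 30 epithelial higher calls were higher calls in mesenchyme (100% of the 30 and 1.96% of 1528), where 10.4% were called higher. The median mesenchymal log2 fold change was −0.51 over the 19 and 0.70 over the 30, against 0.00 over all tested. Both regions came from the same embryos and slide, so this overlap carries whatever varied between embryos.

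RTS0073440 read 36.8, 46.9 and 37.0 CPM in null mesenchyme and 80.7, 81.3 and 84.1 CPM in wild-type mesenchyme. It was thus brighter in the epithelium than in the mesenchyme in each of the 6 embryos, and lower in null in both regions (mesenchyme −0.74 relative to its equals, SE 0.139, edgeR adjusted p = 0.000816). The null mesenchyme mean was 1.33 times background. RTS0062727 was brighter in the mesenchyme, with 79.2, 69.95 and 64.5 CPM in null and 196, 210.5 and 189.8 CPM in wild-type. It fell there too (−0.69, SE 0.183, adjusted p = 0.0197). RTS0079118 read 105, 112 and 110.1 CPM in null mesenchyme and 66.8, 70.0 and 76.1 CPM in wild-type mesenchyme, with no overlap, and rose by 1.20 relative to its equals (SE 0.127, adjusted p = 3.16e-07).

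A test of the difference between the regions, with the embryo as a block, asked which genotype differences were unequal between epithelium and mesenchyme. It passed for 2 of 20175 probes (0.00991%), both lower in null epithelium relative to mesenchyme, and 650 had an unadjusted p under 0.05. RTS0080102 read 69.0, 85.1 and 82.4 CPM in null epithelium and 266, 176.5 and 212 CPM in wild-type epithelium. In mesenchyme it read 52.3, 58.3 and 56.4 CPM in null and 42.8, 37.5 and 41.9 CPM in wild-type. All null libraries were lower in epithelium and all were higher in mesenchyme, where the means of 1.84 and 1.47 times background were close to the floor. The difference between the regions was −1.09 on the log2 scale (SE 0.188, edgeR adjusted p = 0.000314).

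RTS0080102 kept 25.7% of its epithelial signal above background, and the epithelial difference alone did not pass relative to its equals (−0.57, adjusted p = 0.244). In E13.5 epithelium it read 109.9, 80.4 and 46.1 CPM in null and 133.9, 168.9 and 110.8 CPM in wild-type, also without overlap. The matched difference there was −0.95 (SE 0.293, edgeR adjusted p = 0.723) and did not pass. Its region difference passed in each of 6 fits that left out an embryo but not after thinning (−1.82, adjusted p = 0.633). The other, RTS0063083, read 100.4, 70.4 and 103 CPM in null epithelium and 142, 275 and 265 CPM in wild-type epithelium, with no overlap. On the matched scale null replicates 1 and 3 (128 and 146 CPM) read above wild-type replicate 1 (120.5 CPM). The epithelial difference alone did not pass relative to its equals (−0.74, edgeR adjusted p = 0.0614). In mesenchyme it was near background, at 1.48 times in null and 1.42 times in wild-type on average. Its region difference was −0.87 (SE 0.184, adjusted p = 0.0295), and it passed in only 2 of 6 fits that left out an embryo. The call was lost without wild-type embryo 2 or 3 (adjusted p = 0.9999 and 0.877) and without null embryo 1 or 2 (adjusted p = 0.0956 and 0.9996), and after thinning (adjusted p = 0.740). No probe with a positive difference between the regions passed. Among these the lowest p belonged to RTS0068500 (1.10, adjusted p = 0.271) and RTS0068336 (0.56, adjusted p = 0.953). Both had lower means in null epithelium, at 43.6 against 58.6 CPM and 159 against 383 CPM in wild-type. Relative to their equals they fell more in mesenchyme (−1.65 and −0.80) than in epithelium (−0.49 and −0.22). RTS0068500 passed with loess (adjusted p = 0.00326) and without matching (adjusted p = 4.45e-08).

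The calls were not spread evenly over the probe identifiers, a pattern looked at after the values were seen. Identifiers that begin RTS0079 or RTS0080 made up 1710 of the 14758 tested probes (11.6%) and held 19 of the 30 higher calls but 1 of the 19 lower calls. That is 1.11% of their probes called higher, against 0.0843% of the others. Their median log2 fold change relative to probes of equal brightness was 0.27 in E14.5 epithelium and 0.27 in E14.5 mesenchyme, where the other identifiers had −0.04 and −0.02. At E13.5 the epithelial medians were −0.07 and 0.01. The lowest median of a block at E14.5 was −0.23, in RTS0075, which also had −0.27 in mesenchyme and −0.02 in E13.5 epithelium.

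Median brightness differed little, at 47.3 CPM in the RTS0079 and RTS0080 probes and 42.2 CPM in the others. RTS0079118 is 1 of these probes, and RTS0063359 is not. What the identifier blocks share (probe pool, sequence or type of target) was not used here, and its part in the higher calls was not tested.

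**Figure D4:**
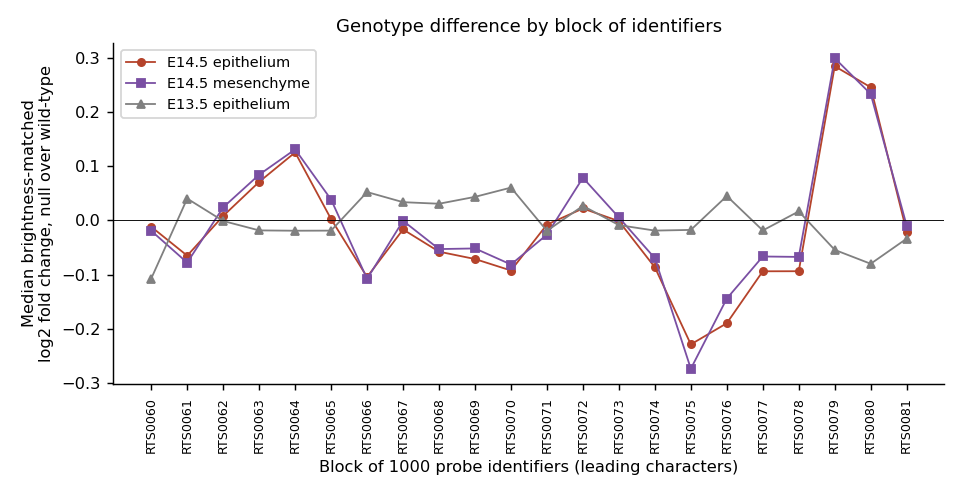
Median brightness-matched log2 fold change of null over wild-type (vertical axis) for each block of probe identifiers that share their leading characters (horizontal), in E14.5 epithelium, E14.5 mesenchyme and E13.5 epithelium. The 2 regions of the same E14.5 embryos follow the same course, with RTS0079 and RTS0080 highest and RTS0075 lowest, while the E13.5 medians run from −0.11 to 0.06.

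How many probes stood apart from their equals depended on single libraries. Without null replicate 2, the deep library, 216 of 16067 probes passed (1.34%), 112 higher and 104 lower, and 39 of the 49 were among them. Of those 112 higher calls, 36 were RTS0079 or RTS0080 probes. Leaving out null replicate 1 or 3 gave 11 calls each, and leaving out wild-type replicate 1, 2 or 3 gave 10, 12 and 18. Over the 6 such fits, the median lower call passed in 2 and the median higher call in 1, and 0 of the 30 higher calls passed in all.

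The spread of single libraries around their group was also measured. Over 1990 probes above 2 times background in both genotypes, the SD of its matched log2 level around the mean of the other null libraries was 0.355, against 0.357 and 0.296 for null replicates 1 and 3. The wild-type replicates 1, 2 and 3 had 0.448, 0.383 and 0.376. Wild-type libraries, the shallower ones, thus scattered more.

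**Figure D5:**
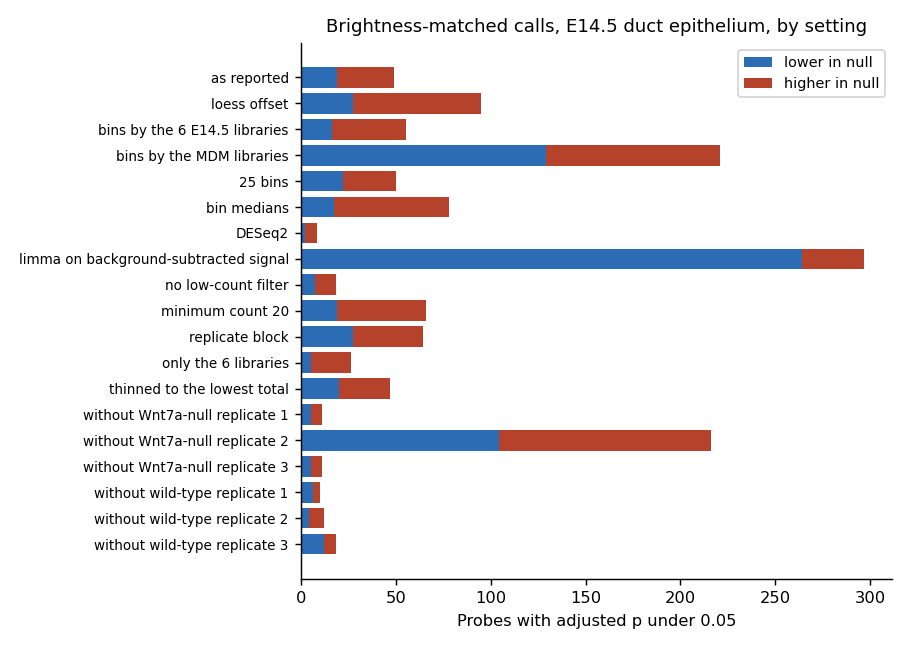
Number of probes with an adjusted p under 0.05 in the brightness-matched comparison of E14.5 epithelium (horizontal axis), lower (blue) and higher (red) in null, as reported and under the other settings of matching, tool, filter, depth and libraries (the fit with no matching is not drawn). The reported count is 49, and the others run from 8 with DESeq2 to 297 with limma on background-subtracted signal.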

How the data were processed

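Raw counts per probe were deposited by the authors. Per the file headers they come from the GeoMx NGS Pipeline, version 2.3.5, and the submitters' processing notes name the genome build GRCm38.p6. Probes a file did not list were set to 0 (964 cells). No pair of files was identical, and 0 identifiers were found in the gene table given for this organism.

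Tests used edgeR 4.0.16 in R 4.3.3 (TMM, filterByExpr with minimum count 10 and minimum total 15, robust quasi-likelihood fit, Benjamini-Hochberg adjustment, threshold 0.05) on the 12 MDE or 12 MDM libraries, and on the 12 E14.5 libraries with the embryo as a block for regions. The matched fit used an offset from library totals over probes of equal mean TMM-scaled CPM (100 bins, interpolated). SE is the size of the log2 fold change over the root of F. Alternatives used DESeq2 1.42.0, limma 3.58.1 (signal floored at 0.25 of background), upper-quartile scaling at the 75th percentile, loess (span 0.3), other bins, filters, thinning and left-out libraries. The E14.5 epithelial fit, before and after matching, and the region test were tried on simulated counts with planted changes. The simulated counts for the region test held no loss of contrast. Other fits were not tried in this way. Exact tests ran in Python 3.11.15.

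Groups and replicate numbers came from the titles. The same numbers did not pair null with wild-type embryos: deviations correlated at 0.012, 0.006 and −0.008. Named probes were at most 2 higher and 2 lower per comparison, by lowest p among those whose higher group averaged at least 1.5 times background. The comparison, its tests and these rules were chosen with earlier results of these data known. Precision is limited by counts per probe in the wild-type libraries.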

Additional observations from a re-analysis of the deposited data

Results flagged for a closer look

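At E14.5 the genotype difference differed between epithelium and mesenchyme of the same embryos for RTS0080102 (−1.09 on the log2 scale relative to probes of equal brightness, edgeR adjusted p = 0.000314; lower in 3 of 3 null epithelial libraries and higher in 3 of 3 null mesenchymal libraries than in any wild-type library of the region).

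It also differed for RTS0063083 (−0.87, edgeR adjusted p = 0.0295), whose mesenchymal levels were under 1.5 times background in both genotypes. Its CPM was lower in 3 of 3 null epithelial libraries, but relative to probes of equal brightness the genotypes overlapped. The call passed in only 2 of 6 fits that left out an embryo and was lost after thinning.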

How the results depend on the processing

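Before matching, the 797 calls became 236 with a minimum count of 20 (2173 probes tested), 175 after thinning (3840 tested) and 0 with signal contrast as a covariate (846 unadjusted), and 316 to 706 without 1 library. After matching, the 49 became 95 with loess, 221 with classes set in the mesenchyme, 78 with class medians, 8 with DESeq2 (636 unadjusted), 297 with limma on subtracted signal (26 of the 49 shared), 18 with no filter, 26 with only the 6 libraries, 797 with no matching and 10 to 216 without 1 library. Thinning left 47, of which 15 were among the 49. The E13.5 count of 0 became 1 without matching and 0 to 1 without 1 library; the stage count of 0 became 45 without matching, 7 with loess, 8 after thinning and 0 to 67 without 1 library. The mesenchymal 3588 became 6001 without matching, 902 after thinning and 1830 to 3320 without 1 library, and the region count of 2 became 54, 7 with loess, 0 after thinning (376 unadjusted) and 1 to 3. The causes of these moves were not tested. Signal contrast did not overlap between the genotypes at E14.5, so the fit with it as a covariate could not separate it from genotype.

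Replicate numbers did not pair the genotypes; with the replicate block 689 probes passed before matching and 64 after. No named probe and no measure of the libraries changed direction in an alternative run. Depth limits dim probes, with a median of 6 to 11 counts per probe in the wild-type libraries.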
